A study of Mus musculus with 19 samples.

Results

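Fatty acid and triglyceride synthesis in the liver was followed through 32 genes, chosen by symbol from the deposited count table: 7 regulators, 4 genes of carbon and NADPH supply, 3 of malonyl-CoA and palmitate, 4 desaturases, 5 elongases and 9 genes of triglyceride assembly. All 32 were found among the table's 35976 rows, and all 32 stayed among the 16463 genes tested after the filter on low counts. RNA came from the livers of 19 mice, 1 library per mouse: 6 Homo (both Pkd1 alleles mutant), 6 Het (1 allele mutant) and 7 WT. Every mouse, WT included, carried AAV-Cre (an adeno-associated virus that delivers Cre recombinase). Every mouse also spent 3 months on Western diet and CCl4 (carbon tetrachloride, a hepatotoxin), a regimen that the labels name as a NASH (non-alcoholic steatohepatitis) model. The design text calls the mice littermates, and the labels give no sex, age, litter or batch and no promoter for Cre. Pkd1 encodes polycystin-1, and the series' title places the question at what Pkd1 mutant clones do to steatohepatitis.

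De novo lipogenesis turns sugar carbon into fat. Citrate leaves the mitochondrion, is split to acetyl-CoA, carboxylated to malonyl-CoA and built into palmitate by fatty acid synthase, with NADPH as the reductant. Palmitate is then elongated, desaturated and esterified to glycerol to give triglyceride. In hepatocytes the pathway is switched on after feeding by SREBP1c, which answers to insulin, and ChREBP, which answers to sugar, and it runs at a high rate in fatty liver.

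Values are given in CPM (counts scaled to the library size by TMM), and fold changes on the log2 scale with their standard error (SE). A gene was called where edgeR's quasi-likelihood test gave a Benjamini-Hochberg adjusted p under 0.05 over all 16463 genes. Libraries held 25.8 to 42.1 M counts (mega). The 7 hepatocyte markers that were found (among them Alb, Apoa1 and Ttr) summed to 24400 to 29800 CPM in Homo, 25700 to 28100 in Het and 23900 to 28400 in WT, so each library was liver by its markers. The pancreas markers Cela1, Prss2 and Cpa1 summed to 53.9 CPM in Homo mouse 8, 82 in Homo mouse 17 and 42.8 in Het mouse 19. In the other mice they summed to 0.853 to 3.02 CPM, and what such carry-over adds to other genes was not tested. The bile duct markers summed to 117 to 158 CPM in Homo, 60.3 to 116 in Het and 55.5 to 157 in WT. Spp1 made most of these sums (means of 126, 72.6 and 81.6 CPM). Krt7 was at 1.03 to 4.19 CPM in Homo, 0.21 to 0.504 in Het and 0.0755 to 0.583 in WT. Krt19 was at 3.36 to 10.1, 0.364 to 1.17 and 0.293 to 2.99. Of 5 bile duct markers tested, 2 were called higher in Homo against WT, where 4 lay above 0 and 1 below. In Homo against Het 3 were called higher. What bile duct cells add to the genes followed here was not tested. Pkd1 was at 357 ± 19.7 CPM in Homo, 390 ± 46.2 in Het and 405 ± 38.6 in WT (Homo against WT -0.18 ± 0.08, adjusted p = 0.315), and whole-gene counts keep any exon that a partial deletion leaves, so they do not check the labels. In bulk liver RNA, fewer cells of a type and less RNA per cell cannot be told apart. Each sample title ends in a number from 1 to 20, called the mouse number here, whose meaning the labels do not give. The lowest numbers, 1 to 3, belong to WT mice, while numbers 15 to 18 all belong to Homo mice, so mouse number and genotype partly coincide.

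Per kilobase of exon, the members spanned a wide range of levels. Scd1, the stearoyl-CoA desaturase that makes oleate, was the highest, with a median of 1730 CPM per kb over the 19 mice (1260 to 2430), followed by Mlxipl at 529, Elovl5 at 169, Srebf1 at 160, Elovl2 at 122 and Fads2 at 110. The ranges of Elovl5 (103 to 275) and Srebf1 (85.7 to 272) overlapped almost completely, and those of Elovl2 and Fads2 overlapped as well. At the low end were Dgat1 at 4.61, Pnpla3 at 2.63, Mogat1 at 1.46 and Scd2, the isoform known from brain, at 1.31 CPM per kb. Some members hardly varied between mice and others varied widely. The highest mouse stood 1.22-fold above the lowest for Nr1h3, 1.26-fold for Agpat3 and 1.39-fold for Dgat2, against 21.6-fold for Pnpla3, 11.2-fold for Elovl3, 9.8-fold for Lpin1, 9.42-fold for Fasn and 7.13-fold for Acly. Together the 32 genes took 1.55% to 2.81% of a library's counts.

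**Figure D1:**
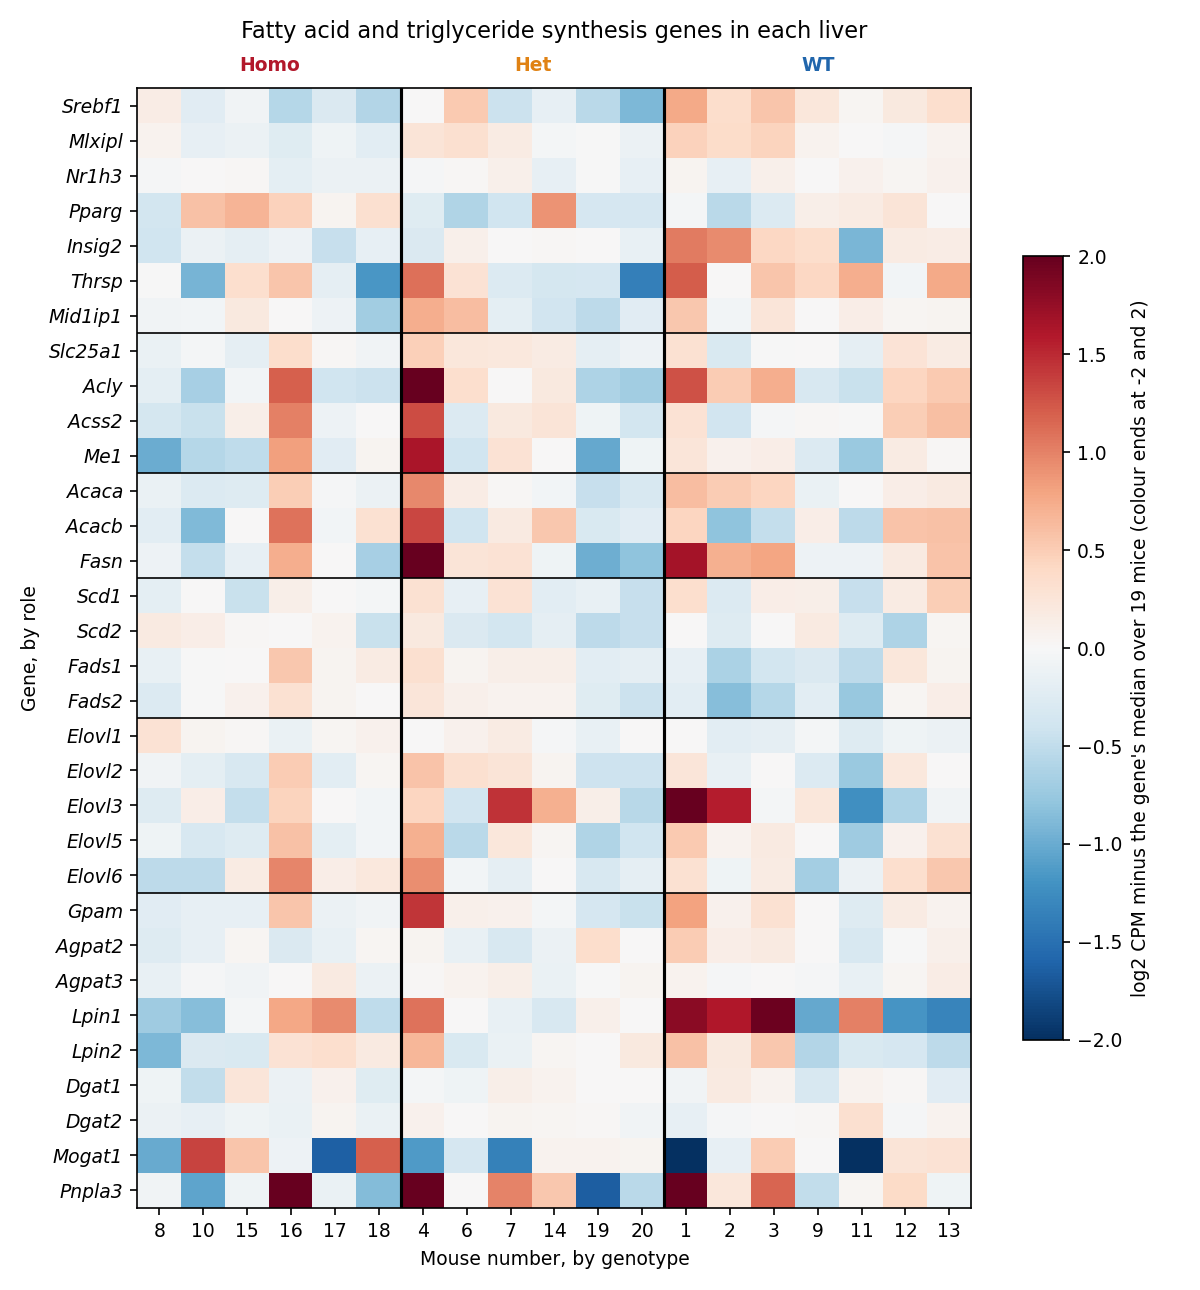
Level of the 32 genes (rows, grouped by role with black lines) in each of the 19 livers (columns, by genotype and mouse number), as log2 CPM minus the gene's median over all mice. Homo mouse 16, Het mouse 4 and WT mouse 1 stand out as red columns through much of the pathway, while Nr1h3, Agpat3 and Dgat2 are pale throughout.

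The promoters of 4 members are shown because these 4 (Srebf1, Mlxipl, Fasn and Mid1ip1) are the members that passed the test against mouse number, described further on. Each runs from 250 bases before to 50 after the most upstream RefSeq start of the gene (GRCm38.p6), 5′ to 3′ on the strand of the gene: Srebf1 at chr11:60222532-60222831 on the minus strand, Mlxipl at chr5:135089640-135089939 on the plus strand, Fasn at chr11:120824498-120824797 on the minus strand and Mid1ip1 at chrX:10717115-10717414 on the plus strand. Capitals mark matches, on either strand, to the SREBP element TCACNCCAC, the E-box CACGTG, which carbohydrate response elements resemble, and the NF-Y box CCAAT, which reads ATTGG on the other strand.
Srebf1: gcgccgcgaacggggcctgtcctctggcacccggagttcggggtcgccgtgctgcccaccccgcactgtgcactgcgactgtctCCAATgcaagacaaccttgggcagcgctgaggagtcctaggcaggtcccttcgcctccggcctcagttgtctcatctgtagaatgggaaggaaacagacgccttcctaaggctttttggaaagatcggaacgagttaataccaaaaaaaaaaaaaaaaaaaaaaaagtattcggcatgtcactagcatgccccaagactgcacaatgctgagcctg
Mlxipl: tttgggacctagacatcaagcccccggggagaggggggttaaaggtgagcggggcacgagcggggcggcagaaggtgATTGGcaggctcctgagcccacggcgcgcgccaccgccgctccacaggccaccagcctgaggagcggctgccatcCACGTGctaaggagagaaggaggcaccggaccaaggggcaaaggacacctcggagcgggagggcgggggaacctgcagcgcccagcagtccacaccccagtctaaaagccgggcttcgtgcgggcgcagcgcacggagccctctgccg
Fasn: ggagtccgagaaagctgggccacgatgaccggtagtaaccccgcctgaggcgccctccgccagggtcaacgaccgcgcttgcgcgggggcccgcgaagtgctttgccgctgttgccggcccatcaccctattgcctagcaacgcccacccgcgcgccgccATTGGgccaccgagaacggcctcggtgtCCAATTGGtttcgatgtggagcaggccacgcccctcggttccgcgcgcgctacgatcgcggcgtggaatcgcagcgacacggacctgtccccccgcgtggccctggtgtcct
Mid1ip1: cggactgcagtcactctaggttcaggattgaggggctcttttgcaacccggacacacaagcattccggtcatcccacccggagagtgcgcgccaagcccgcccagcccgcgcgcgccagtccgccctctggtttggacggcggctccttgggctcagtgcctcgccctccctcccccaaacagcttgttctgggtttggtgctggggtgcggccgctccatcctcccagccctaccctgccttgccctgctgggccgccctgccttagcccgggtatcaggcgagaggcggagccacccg

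In these windows Srebf1 held 1 CCAAT, Mlxipl 1 CACGTG and 1 CCAAT on the other strand, Fasn 3 CCAAT matches of which the last 2 share bases, and Mid1ip1 none of the 3 motifs. Srebf1 has further RefSeq starts downstream. The window at chr11:60210422-60210721 held 1 CCAAT on the other strand and that at chr11:60220578-60220877 none of the 3 motifs. Which start the Srebf1 reads come from was not tested. RefSeq had promoters for 26 of the 32 members (40 promoters in all). CCAAT was found in 19 of the 40 promoters (47.5%), against 37.4% of all 32851 promoters. By gene, which counts genes with more promoters more favourably, it was found for 17 of the 26, against 41.1% of all 27025 genes, CACGTG for 4 (Elovl5, Lpin2, Mlxipl and Slc25a1) against 8.09%, and TCACNCCAC for 1, a second start of Mlxipl, against 1.44%. A match is a description of the letters and not a binding site. Only these exact letters were searched, so a window without a match may still hold a site.

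With both Pkd1 alleles mutant, the 2 transcription factors that switch lipogenesis on had lower mean levels than in WT, and so did most of the enzymes, but no member passed the test. Of the 32 members edgeR called 0 in Homo against WT, where 0.480% of all genes tested were called. At an unadjusted p under 0.05 there were 6 members, 3 higher and 3 lower (18.8% of members, against 12.9% of all genes), and DESeq2, run beside edgeR, called 2, Srebf1 and Mlxipl (adjusted p = 0.0412 each), where it called 1.85% of all genes. The fold change lay below 0 for 23 of 32 members, with a median of -0.11, against 49.7% and a median of 0.0019 over all genes. The median was -0.22 without Homo mouse 16 (26 below 0) and -0.06 without WT mouse 1 (21 below 0). With mouse number as a covariate 21 of 32 members kept their direction, without mice 1 to 3 24 did, and within mice 8 to 13 29 did. Mouse number and genotype partly coincide, so their parts in this direction cannot be fully told apart. By role, 6 of 7 regulators lay below 0 (median -0.33), 4 of 4 supply genes (-0.07, and -0.36 without Homo mouse 16), 2 of 3 genes of malonyl-CoA and palmitate (-0.30) and 8 of 9 genes of triglyceride assembly (-0.13), whereas 3 of 4 desaturases (median 0.22) and 3 of 5 elongases (0.05) lay above 0. For none of the 32 did the Homo and WT mice separate without overlap. Overlap, and the mice beyond the WT range given below, were not counted over all genes.

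**Figure D2:**
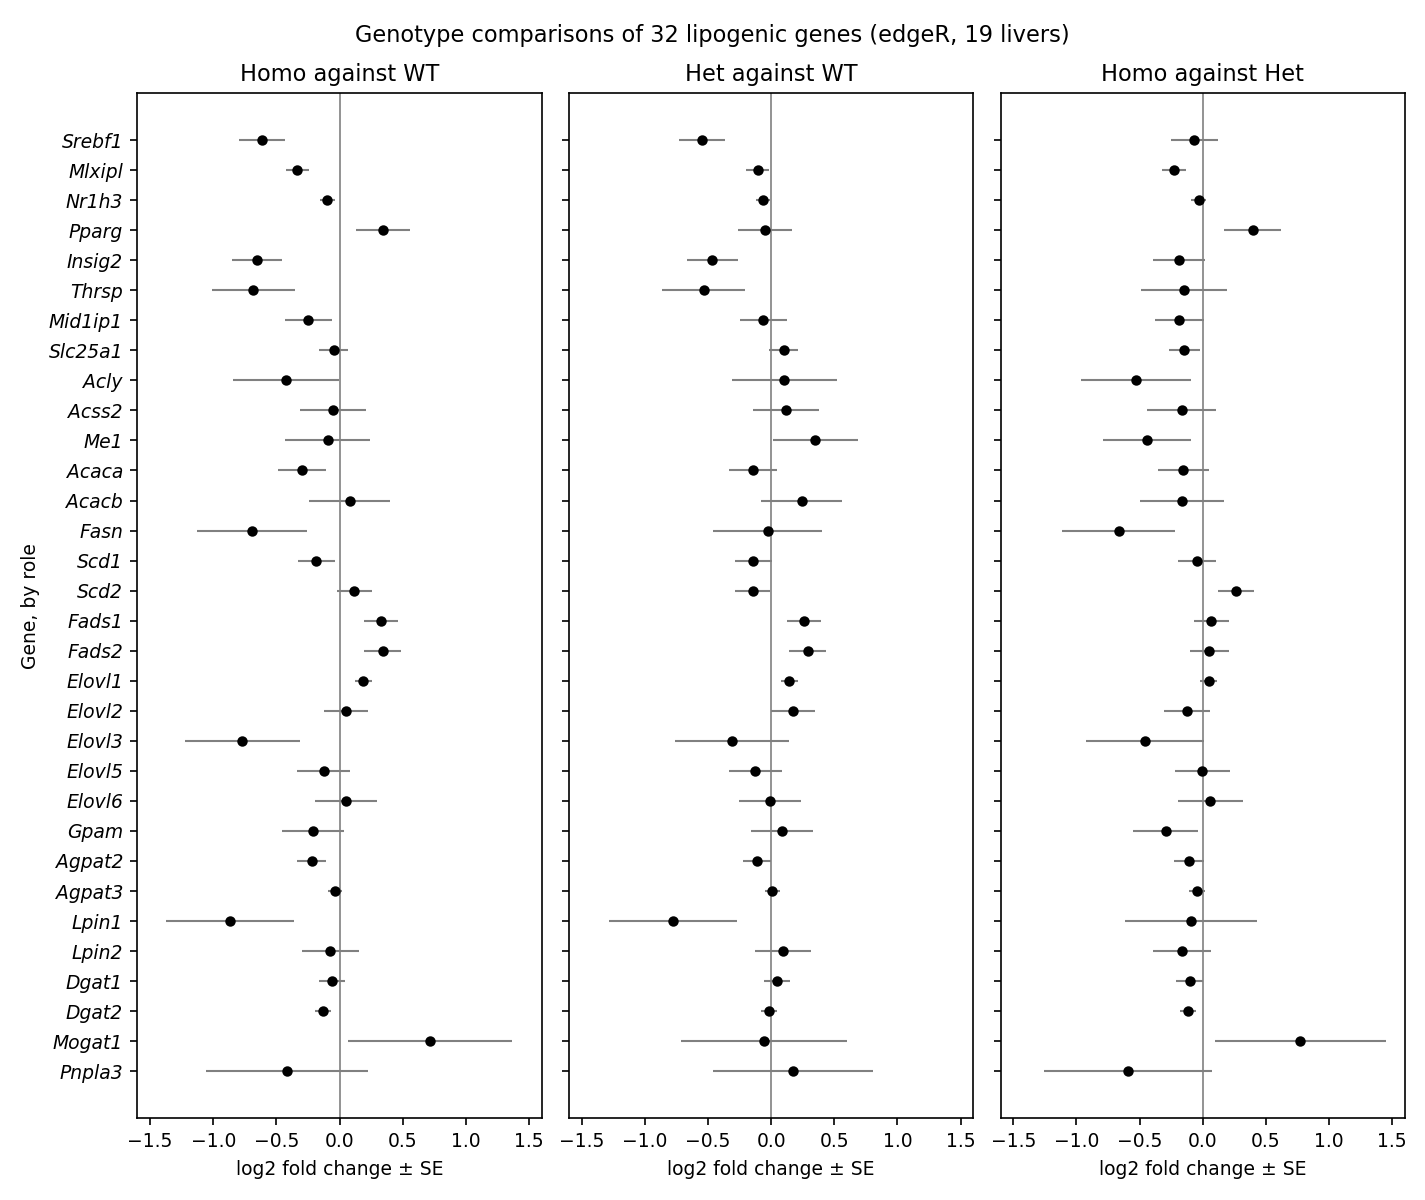
Log2 fold change (point) and SE (line) of the 32 genes, by role from top to bottom, for Homo against WT, Het against WT and Homo against Het, from 1 edgeR fit of 19 livers. No gene passed in any panel; Srebf1, Mlxipl and Insig2 lie left of 0 and Fads1, Fads2 and Elovl1 right of it in the first panel.

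Among the regulators, Srebf1 (chromosome 11, 60199089 to 60222581, GRCm38, minus strand) encodes SREBP1, the insulin-driven activator of the fatty acid synthesis genes. It was at 597, 752 and 993 CPM in Homo (lowest, median and highest), 483, 738 and 1290 in Het and 929, 1130 and 1530 in WT. Of the 6 Homo mice 5 lay under the lowest WT mouse, and so did 5 of the 6 Het mice. The fold change was -0.61 ± 0.18 for Homo against WT (adjusted p = 0.150) and -0.55 ± 0.18 for Het against WT (adjusted p = 0.426), so that Homo and Het differed from each other by only -0.07 ± 0.19. With mouse number as a covariate Homo against WT was at -0.29 (adjusted p = 0.633), without mice 1 to 3 at -0.45 and within mice 8 to 13, where 2 Homo and 4 WT mice remain, at -0.24. Srebf1 shares 109 exon bases, 1.93% of its exon length, with Rai1 on the other strand.

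Mlxipl (chromosome 5, 135089890 to 135138382, plus strand) encodes ChREBP, the sugar-driven partner of SREBP1 in lipogenesis. Its levels were 2480, 2660 and 3060 CPM in Homo, 2690, 3100 and 3670 in Het and 2880, 3090 and 4030 in WT. Again 5 of 6 Homo mice lay under the lowest WT mouse, but only 2 of 6 Het mice did. The fold change was -0.33 ± 0.09 for Homo against WT (adjusted p = 0.125), -0.11 ± 0.09 for Het against WT (0.776) and -0.23 ± 0.10 for Homo against Het (0.740). Here too mouse number moved with the difference: Homo against WT was at -0.13 with it as a covariate, -0.16 without mice 1 to 3 and -0.08 within mice 8 to 13.

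Insig2 (chromosome 1, 121304353 to 121332589, minus strand) encodes a protein of the endoplasmic reticulum that holds SREBPs back from activation. It was at 199, 243 and 255 CPM in Homo, 225, 275 and 295 in Het and 146, 351 and 567 in WT. All 6 Homo and all 6 Het mice lay under the WT median, yet WT mouse 11, at 146 CPM, was under every other mouse. Homo against WT was at -0.65 ± 0.20 (adjusted p = 0.166) and Het against WT at -0.46 ± 0.20 (0.525). Without WT mouse 11 the Homo difference was -0.80 and passed (adjusted p = 0.0110); without mice 1 to 3 it was -0.25.

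**Figure D3:**
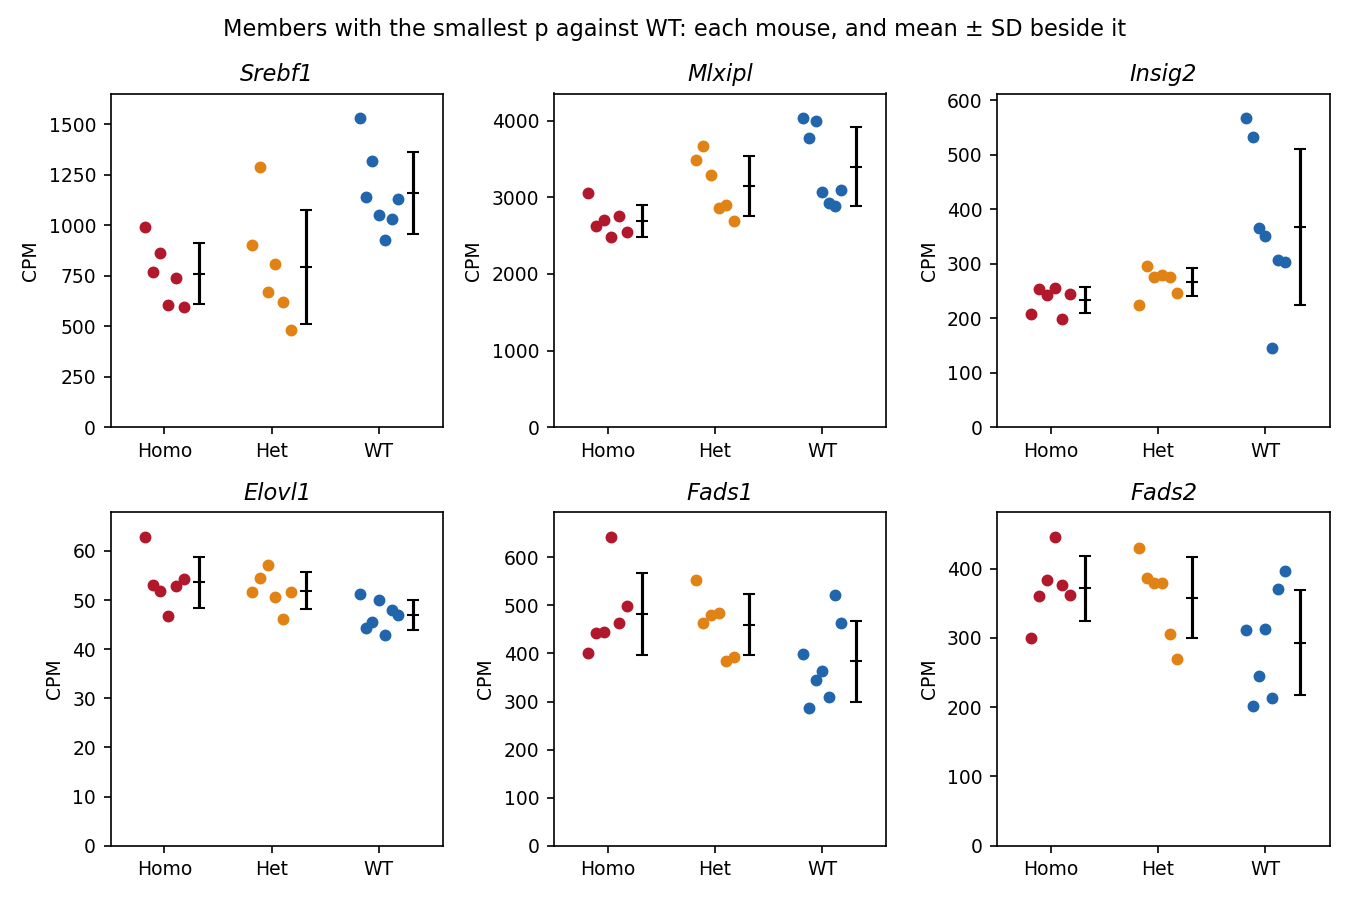
CPM of the 6 genes with the smallest p against WT in each mouse (points, in order of mouse number within a genotype), with the mean ± SD beside them, for Homo, Het and WT. Homo and WT mice overlap for each gene; for Srebf1 and Mlxipl 5 of 6 Homo mice lie under the lowest WT mouse, and for Elovl1 5 of 6 lie above the highest.

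None of the other regulators passed between genotypes. Nr1h3, which encodes the oxysterol receptor LXR alpha that raises Srebf1 transcription, averaged 128 ± 7.51 CPM in Homo, 131 ± 9.48 in Het and 137 ± 8.26 in WT (SD; n = 6, 6 and 7, as for all means below). Pparg, the adipogenic nuclear receptor that is induced in fatty liver, averaged 30.2 ± 7.37 CPM in Homo, 22.9 ± 10.8 in Het and 23.7 ± 4.26 in WT (Homo against WT 0.35 ± 0.21, adjusted p = 0.514; Homo against Het 0.39 ± 0.22, adjusted p = 0.849). Its highest mouse was Het mouse 14, at 44.8 CPM, and the next Het mouse was at 20.4. The 6 adipocyte markers summed to 23.3 CPM in that mouse, the highest of all, and to 9.11 to 13.7 CPM in Homo, 7.68 to 11.4 in the other Het mice and 5.42 to 14.6 in WT; Adipoq and Lep were at 0 in all WT mice. Cidec, which fatty hepatocytes also express, makes most of these sums (means of 11.3 CPM in Homo, 9.91 in Het and 8.32 in WT). The other 5 markers averaged under 1 CPM each. These means do not describe Het mouse 14. Cidec was at most 15.5 CPM in Het, so the other 5 markers make the rest of that mouse's 23.3 CPM. The highest Plin1 value was 3.81 CPM in Het, 0.268 in Homo and 0.0252 in WT. The part of adipocytes in the Pparg value was not tested. Thrsp, the lipogenic nuclear protein Spot 14, averaged 101 ± 43.4 CPM in Homo, 112 ± 66.1 in Het and 162 ± 50.6 in WT (Homo against WT -0.68 ± 0.33, adjusted p = 0.392). Mid1ip1, a relative of Thrsp that promotes the assembly of acetyl-CoA carboxylase into its active polymer, averaged 34.7 ± 6.42 CPM in Homo, 39.4 ± 15.4 in Het and 41.2 ± 6.29 in WT. It shares 25.5% of its exon length with an antisense gene, Gm14493, and the strand setting of the counting is not given, so its reads may include those of the partner.

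None of the carbon and NADPH supply genes passed between genotypes. Slc25a1, the mitochondrial citrate carrier, averaged 65.5 ± 9.44 CPM in Homo, 72.4 ± 11.8 in Het and 67.6 ± 10.7 in WT. Acly, which splits citrate to acetyl-CoA, averaged 152 ± 91.1 CPM in Homo, 220 ± 209 in Het and 204 ± 82.1 in WT. Het mouse 4 was at 639 CPM and the next Het mouse at 183. Acss2, which makes acetyl-CoA from acetate, averaged 139 ± 59.7 CPM in Homo, 156 ± 80.5 in Het and 144 ± 33.5 in WT, and Me1, the malic enzyme that yields NADPH, 98.5 ± 48.2 in Homo, 134 ± 101 in Het and 105 ± 21.7 in WT. Fold changes of Homo against WT ran from -0.43 for Acly to -0.05 for Slc25a1 and Acss2.

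Fasn (chromosome 11, 120805846 to 120824547, minus strand), the fatty acid synthase itself, was at 169, 245 and 443 CPM in Homo, 137, 286 and 1290 in Het and 249, 397 and 848 in WT. The Homo median lay under the lowest WT mouse, but the highest Homo mouse was above the WT median. Homo against WT was -0.69 ± 0.44 (adjusted p = 0.524), Het against WT -0.03 ± 0.43 (0.989) and Homo against Het -0.67 ± 0.45 (0.903). The last rests on Het mouse 4: without it Homo against Het was 0.13. Acaca, the acetyl-CoA carboxylase that supplies malonyl-CoA for synthesis, averaged 374 ± 83.1 CPM in Homo, 416 ± 169 in Het and 459 ± 87.5 in WT (Homo against WT -0.30 ± 0.19). Acacb, the carboxylase whose malonyl-CoA restrains fatty acid import into mitochondria, averaged 398 ± 192 CPM in Homo, 446 ± 239 in Het and 377 ± 141 in WT (0.08 ± 0.32).

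Fads1, Fads2 and Elovl1 lay above 0 against WT, also without a call. Fads1 and Fads2, neighbours on chromosome 19 (10182888 to 10196877 and 10062765 to 10101746), encode the desaturases that make arachidonic and docosahexaenoic acid. Fads1 was at 400, 454 and 643 CPM in Homo, 384, 472 and 553 in Het and 287, 364 and 522 in WT. Fads2 was at 300, 370 and 446 CPM in Homo, 270, 379 and 429 in Het and 201, 312 and 397 in WT. The genotypes overlapped: 1 Homo mouse exceeded the highest WT mouse for each gene. Homo against WT was 0.33 ± 0.13 for Fads1 (adjusted p = 0.305) and 0.34 ± 0.15 for Fads2 (0.338), Het against WT 0.26 ± 0.13 (0.592) and 0.29 ± 0.15 (0.591). Elovl1 (chromosome 4, 118428093 to 118432953), which elongates saturated very long chains, was at 46.7, 53.0 and 62.9 CPM in Homo, 46.1, 51.7 and 57.1 in Het and 42.9, 47.0 and 51.3 in WT. Of the Homo mice 5 of 6, and of the Het mice 4 of 6, lay above the highest WT mouse, with a difference of 0.19 ± 0.07 for Homo against WT (adjusted p = 0.240) and 0.14 ± 0.07 for Het against WT (0.561).

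The other desaturases and elongases had adjusted p-values of at least 0.491 in Homo against WT. Scd1 averaged 7990 ± 1050 CPM in Homo, 8240 ± 1750 in Het and 9080 ± 1960 in WT (Homo against WT -0.18 ± 0.14, adjusted p = 0.622), and Scd2 7.20 ± 1.00 in Homo, 6.00 ± 1.17 in Het and 6.63 ± 1.16 in WT. Scd1 and Scd2 are close copies, and how reads that match both were counted is not given. Elovl2, which elongates polyunsaturated chains, averaged 478 ± 109 CPM in Homo, 521 ± 140 in Het and 461 ± 97.6 in WT, and Elovl5, which acts on shorter ones, 586 ± 155 in Homo, 587 ± 223 in Het and 640 ± 150 in WT. Elovl6, which takes palmitate to stearate, averaged 74.8 ± 31.0 CPM in Homo, 71.7 ± 27.9 in Het and 72.1 ± 18.4 in WT. Elovl3, an elongase known from brown fat and skin, was at 10.9, 15.0 and 20.9 CPM in Homo, 10.4, 18.6 and 41.6 in Het and 6.47, 14.9 and 72.5 in WT (lowest, median and highest; Homo against WT -0.77 ± 0.45, adjusted p = 0.491).

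Triglyceride assembly begins with Gpam, the mitochondrial acyltransferase that acylates glycerol phosphate, which averaged 356 ± 83.0 CPM in Homo, 436 ± 260 in Het and 411 ± 104 in WT. The next acylation is the work of Agpat2, at 86.1 ± 8.50 CPM in Homo, 92.8 ± 15.1 in Het and 100 ± 17.4 in WT, and Agpat3, at 742 ± 62.0 in Homo, 766 ± 43.1 in Het and 761 ± 48.9 in WT. Agpat3 was thus nearly level, at -0.04 ± 0.06 for Homo against WT. The phosphatidate phosphatase Lpin1 was at 413, 626 and 1430 CPM in Homo, 596, 746 and 1590 in Het and 297, 1500 and 2910 in WT. The WT mice themselves fell apart, with mice 1, 2, 3 and 11 at 1500 to 2910 CPM and mice 9, 12 and 13 at 297 to 367, and the Homo difference of -0.87 ± 0.51 did not pass (adjusted p = 0.485). Its relative Lpin2, the 1 member on chromosome 17, where Pkd1 also lies, averaged 741 ± 219 CPM in Homo, 831 ± 209 in Het and 779 ± 275 in WT.

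The last step is catalysed by Dgat1 and Dgat2. Dgat1 averaged 13.3 ± 2.34 CPM in Homo, 14.3 ± 0.74 in Het and 13.9 ± 1.67 in WT, and Dgat2, which esterifies newly made fatty acids, 138 ± 7.70 in Homo, 149 ± 5.42 in Het and 151 ± 16.1 in WT (Homo against WT -0.13 ± 0.06, adjusted p = 0.389; Homo against Het -0.11 ± 0.06, adjusted p = 0.849). These were among the steadiest members, and their differences were small. Mogat1, a monoacylglycerol acyltransferase, averaged 3.09 ± 2.17 CPM in Homo, 1.80 ± 0.711 in Het and 1.89 ± 1.31 in WT, with no count in WT mouse 1, and 12.8% of its exon length overlaps BC035947. Pnpla3, a lipid droplet protein under SREBP1 control, averaged 5.47 ± 5.84 CPM in Homo, 8.24 ± 9.59 in Het and 7.26 ± 6.20 in WT, so that its SD was about as large as its mean. Pnpla3 shares 105 exon bases, 6.78% of its exon length, with Gm49513 on the same strand.

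With 1 mutant allele the regulators again lay below WT, without a call. In Het against WT, edgeR and DESeq2 each called 0 of the 32 members, where edgeR called 0.0243% of all genes, and 3 members had an unadjusted p under 0.05 (1 higher, Elovl1, and 2 lower, Srebf1 and Insig2; 9.38% of members, against 8.84% of all genes). The fold change lay below 0 for 18 of 32, with a median of -0.02, against 50.9% and -0.0043 over all genes. All 7 regulators lay below 0 (median -0.11), also without Het mouse 4 (median -0.23). All 4 supply genes lay above 0 (median 0.11), but without Het mouse 4 only Slc25a1 did, at 0.03, with Acly at -0.59, Acss2 at -0.21 and Me1 at -0.16. Without that mouse 24 of 32 members lay below 0, with a median of -0.19, and without WT mouse 1 14 did, with a median of 0.02. Het and Homo were set against the same WT mice, so their values are not independent.

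Homo against Het compares 2 with 1 mutant alleles. edgeR and DESeq2 each called 0 of the 32 members, where edgeR called 0.182% of all genes, and 1 member, Mlxipl, had an unadjusted p under 0.05 (3.12% of members, against 6.29% of all genes). Below 0 lay 25 of 32, with a median of -0.12, against 50.3% and -0.0012 over all genes. This direction rests on Het mouse 4: without it 13 of 32 lay below 0, with a median of 0.08. Without Homo mouse 16 the median was -0.21. After Mlxipl the smallest p belonged to Scd2 (0.26 ± 0.14, adjusted p = 0.843), Dgat2, Pparg and Fasn, whose values are given above. Within mice 14 to 20, where 4 Homo and 3 Het mice remain, 13 of 32 members had the direction they had over all mice, and Fasn was at 0.63.

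Members passed the test against mouse number, where none had passed between genotypes. In a fit with genotype and mouse number, 4 of 32 members were called, all lower at higher numbers (12.5% of members, where 6.40% of all genes were called in either direction). At an unadjusted p under 0.05 there were 12, all lower (37.5%, against 20.3% of all genes). The fold change per 10 mouse numbers lay below 0 for 24 of 32 members, with a median of -0.21, against 50.6% and -0.0026 over all genes. The labels do not say what the number stands for. Since mice 1 to 3 are WT, they can be set against higher numbers only within WT, and no Homo or Het mouse has so low a number.

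Mlxipl fell by 0.28 on the log2 scale per 10 numbers (SE 0.04, adjusted p = 0.000935) and Srebf1 by 0.48 (SE 0.10, adjusted p = 0.00813). For Mlxipl, WT mice 1, 2 and 3 were at 4030, 3770 and 4000 CPM, and WT mice 9, 11, 12 and 13 at 3070, 2930, 2880 and 3090; Het mice 4, 6 and 7 were at 3490, 3670 and 3290, and Het mice 14, 19 and 20 at 2860, 2900 and 2690. Low- and high-numbered mice thus did not overlap within WT or Het. In Homo they overlapped, with mice 8 and 10 at 3060 and 2620 CPM and mice 15, 16, 17 and 18 at 2700, 2480, 2750 and 2540. Such a split was not counted over all genes. The slope within a genotype was -0.18 in Homo, -0.24 in Het and -0.40 in WT for Mlxipl, and -0.53 in Homo, -0.53 in Het and -0.36 in WT for Srebf1. Both calls held in each of the 19 fits that left out 1 library, and without mice 1 to 3. Neither held within mice 8 to 13 or 14 to 20, where slopes were -0.24 and -0.08 for Mlxipl and -0.15 and -1.11 for Srebf1.

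Fasn fell by 1.10 per 10 numbers (SE 0.27, adjusted p = 0.0177) and Mid1ip1 by 0.43 (SE 0.12, adjusted p = 0.0363). These calls were less steady. Leaving out 1 library ended that of Fasn in 4 of 19 fits and that of Mid1ip1 in 7, and both ended without mice 1 to 3. Slopes for Fasn were 0.13 in Homo, -1.42 in Het and -0.89 in WT, and within mice 8 to 13 Fasn was at 0.97 and Mid1ip1 at 0.08. Without Het mouse 4 only Srebf1 and Mlxipl remained called. Acaca came next (-0.43 ± 0.13, adjusted p = 0.0528), then Gpam (-0.53, 0.0661), Pnpla3 (-1.38, 0.0872), Elovl3 (-0.96, 0.0895) and Acly (-0.84, 0.104). Over all 32 members the slope lay below 0 in all 3 genotypes for 5: Srebf1, Mlxipl, Mid1ip1, Scd2 and Elovl1. Of the 7 hepatocyte markers 1, Ttr, was called (-0.28), and 3 had an unadjusted p under 0.05, all lower, with a median of -0.16 over the 7. Their part in the slopes of the members was not tested.

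**Figure D4:**
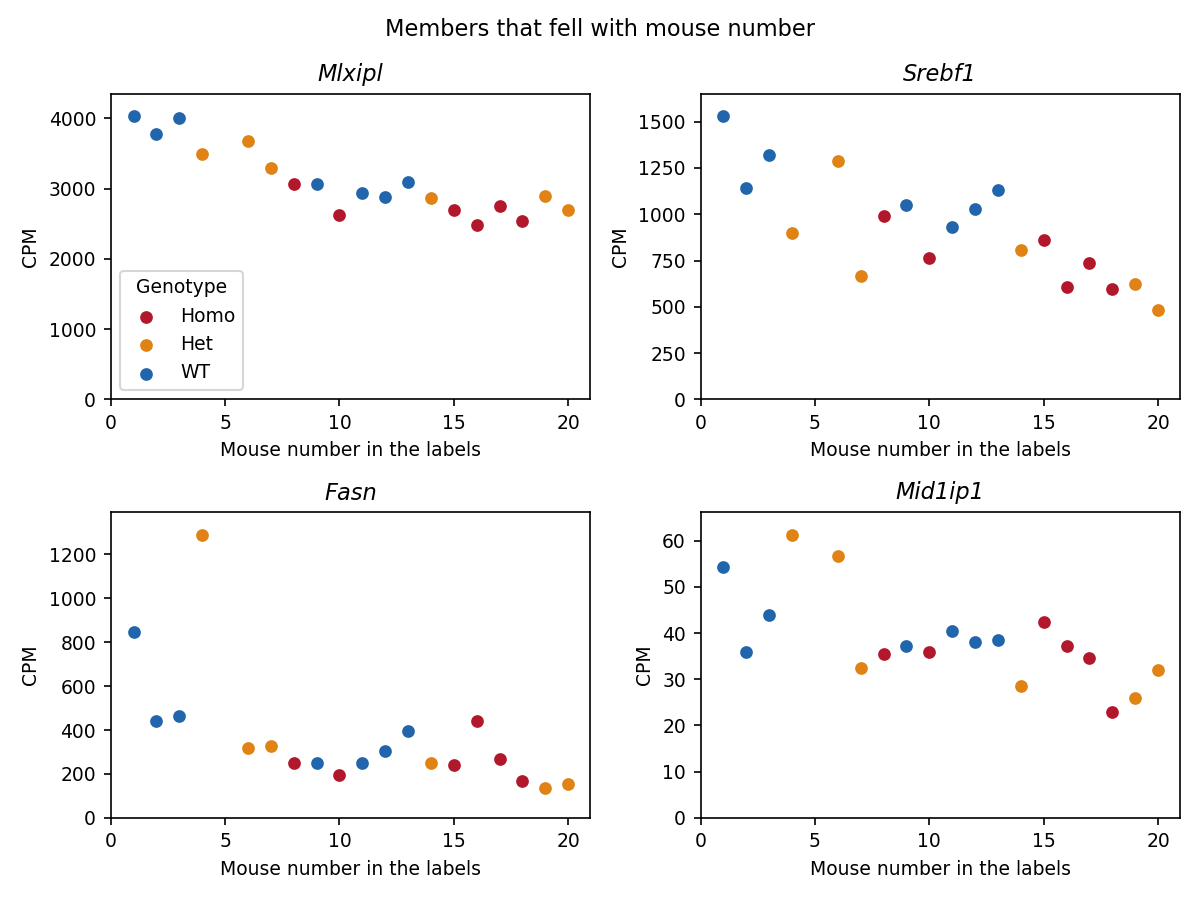
CPM of the 4 genes that fell with mouse number (y axis, from 0) against the number in the sample title (x axis), coloured by genotype. Mlxipl and Srebf1 are highest among the low numbers and lowest among the high ones; the 2 highest Fasn values are Het mouse 4 at 1290 CPM and WT mouse 1 at 848.

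In each genotype 1 mouse stood out with high lipogenic expression: Homo mouse 16, Het mouse 4 and WT mouse 1. Fasn was at 443 CPM in Homo mouse 16, with the next Homo mouse at 268; at 1290 in Het mouse 4, with the next Het mouse at 326; and at 848 in WT mouse 1, with the next WT mouse at 462. Homo mouse 16 was the highest of its genotype for 18 of 32 members, Het mouse 4 for 21 and WT mouse 1 for 18. These mice were named for high levels of the same members, so the counts and the sums below largely restate that choice. The share of all genes for which these mice were highest is not given here. Of the sums below, Scd1 alone made 9150 CPM in Homo mouse 16, 10400 in Het mouse 4 and 10600 in WT mouse 1. The summed level of the members was 22000 CPM in Homo mouse 16, against 16200 to 19600 in the other Homo mice, 27500 in Het mouse 4, against 15400 to 21600 in the other Het mice, and 27700 in WT mouse 1, against 16500 to 24500 in the other WT mice. Srebf1 shared the pattern only in WT, where mouse 1 was the highest: Homo mouse 16, at 605 CPM, was the second lowest Homo mouse, and mouse 6, not 4, was the highest Het mouse. At the other end WT mouse 11 was the lowest WT mouse for 13 members, and Het mice 19 and 20 the lowest Het mouse for 11 each. The labels give nothing that sets these mice apart.

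Across the 19 mice the members most like Fasn were Acaca (Pearson's r = 0.958), Acly (0.944), Gpam (0.934) and Pnpla3 (0.904), then Elovl5 (0.788), Thrsp (0.781), Mid1ip1 (0.765) and Me1 (0.757). These 8 were the members with r above 0.75. Of these 8 and Fasn, Homo mouse 16 was the highest Homo mouse for 8 of 9 (all but Mid1ip1), and Het mouse 4 and WT mouse 1 were the highest of their genotype for 9 of 9. These genes were chosen for following Fasn over the same mice, which largely fixes that count. At the other end were Pparg (-0.204) and Mogat1 (-0.443). These values are a description over mice of 3 genotypes and share each library's depth.

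Of 12 pairs of members tested for correlation of log2 CPM across the 19 mice, 8 passed by Pearson's r after adjustment over the 12. By Spearman's rho, Srebf1 also passed with Acly (adjusted permutation p = 0.0188) and with Gpam (0.0457). Fasn and Acaca, consecutive enzymes of palmitate synthesis, had r = 0.958 and rho = 0.949 (permutation p = 1e-05 for each, the smallest that 100000 permutations can give; adjusted 6e-05 and 0.00012), and r = 0.929 without mice 4 and 1. Fads1 and Fads2 had r = 0.938 (permutation p = 1e-05, adjusted 6e-05) and rho = 0.846 (permutation p = 2e-05, adjusted 0.00012), and r = 0.922 without mice 2 and 16. Both pairs held with the genotype means removed, at r = 0.953 and 0.913. Fasn followed Elovl6 (r = 0.642, permutation p = 0.00335, adjusted 0.0134; rho = 0.593, permutation p = 0.00848, adjusted 0.0178) and Scd1 (r = 0.578, permutation p = 0.00838, adjusted 0.0248; rho = 0.630, permutation p = 0.00465, adjusted 0.0178) less closely, and without mice 4 and 1 neither passed, at r = 0.501 and 0.446.

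Srebf1 and genes known as SREBP1 targets had lower correlations. Srebf1 and Fasn had r = 0.563 (permutation p = 0.0111, adjusted 0.0248) and rho = 0.574 (permutation p = 0.0115, adjusted 0.0188), and did not pass without mice 20 and 1 (r = 0.371, rho = 0.434), the extremes of Srebf1, whose removal also narrows its range. With genotype means removed they had r = 0.505 (adjusted permutation p = 0.0708) and rho = 0.551 (0.0379). Srebf1 did not pass with Acly (r = 0.449, adjusted permutation p = 0.0719; rho = 0.567, 0.0188), Gpam (0.368, 0.145; rho = 0.482, 0.0457) or Pnpla3 (0.335, 0.177; rho = 0.402, 0.0874) by Pearson's r. Mlxipl and Thrsp (r = 0.561, adjusted permutation p = 0.0248; rho = 0.591, 0.0178), Srebf1 and Insig2 (r = 0.531, 0.0337; rho = 0.600, 0.0178) and Nr1h3 and Srebf1 (r = 0.521, 0.0340; rho = 0.486, 0.0457) passed over all mice. None of these 3 passed without the 2 mice farthest from the median (r = 0.435, 0.409 and 0.467) or with the genotype means removed. Pparg and Mogat1 had r = 0.209 (adjusted permutation p = 0.400) and rho = 0.458 (0.0550). With genotype means and a linear term in mouse number removed, an alternative chosen after seeing the data, Srebf1 and Fasn were at r = 0.01, while Fasn and Elovl6 were at 0.921.

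**Figure D5:**
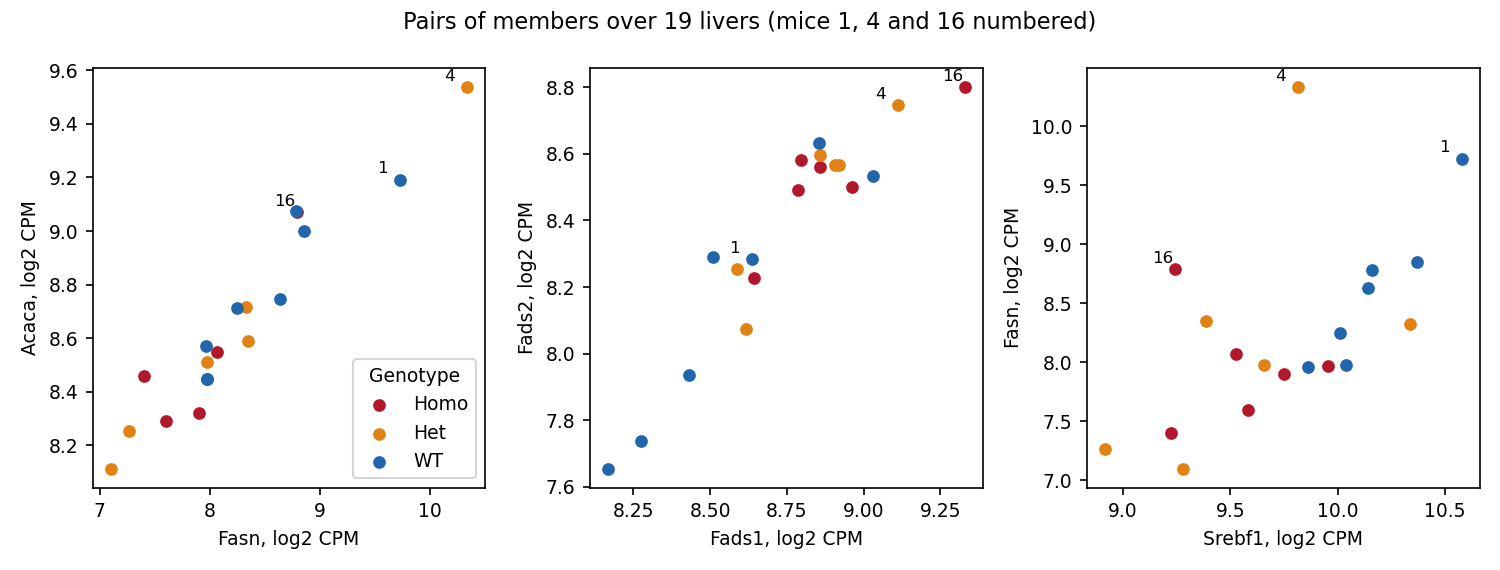
Log2 CPM of Acaca against Fasn, Fads2 against Fads1 and Fasn against Srebf1 in the 19 livers, coloured by genotype, with mice 1, 4 and 16 numbered. Fasn with Acaca and Fads1 with Fads2 lie near a line, whereas mice 4 and 16 lie above mice of similar Srebf1 level in the plot of Fasn against Srebf1.

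Genes next to the pathway were read from 4 further lists. In Homo against WT none of their 59 tested genes was called by edgeR, with 9 at an unadjusted p under 0.05 (15.3%, against 12.9% of all genes). DESeq2 called 1, Khk (1.69%, against 1.85% of all genes), so both shares were near those of all genes. The genes that bring carbon and NADPH from sugar lay below 0 for 13 of 13, with a median of -0.17. Khk, the fructokinase that commits fructose to breakdown, was at -0.43 ± 0.11 (adjusted p = 0.0832) and Mdh1, the cytosolic malate dehydrogenase, at -0.22 ± 0.07 (0.162). Of the other regulators 12 of 18 lay below 0 (median -0.05), with the smallest p for Nr1h2, the second LXR, at -0.13 ± 0.06 (adjusted p = 0.336). The other acyl chain enzymes lay above 0 for 10 of 15 tested of 17 (median 0.03), led by Elovl7 at 1.61 ± 0.55 (0.221), Acsl4 at 0.23 ± 0.08 (0.238) and Acsl1 at 0.37 ± 0.16 (0.328). Of the other glycerolipid enzymes 9 of 13 lay above 0 (median 0.08), with Abhd5, the activator of triglyceride lipase, at -0.18 ± 0.07 (0.278).

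With mouse number the same 4 lists held 8 calls of 59 tested (13.6%, where 6.40% of all genes were called), 3 lower and 5 higher. Insig1, an SREBP target that restrains SREBPs, fell by 0.78 per 10 numbers (SE 0.20, adjusted p = 0.0252), Mlx, the partner through which ChREBP binds DNA, by 0.26 (SE 0.07, adjusted p = 0.0390) and Cs, citrate synthase, by 0.24 (SE 0.06, adjusted p = 0.0217). Higher at higher numbers were Acsl1, which activates fatty acids to acyl-CoA, by 0.52 ± 0.06 (adjusted p = 0.000280), Lpgat1, a lysophospholipid acyltransferase, by 0.35 ± 0.07 (0.00849), Pnpla2, the triglyceride lipase ATGL, by 0.28 ± 0.08 (0.0354), and the acyltransferases Gpat3 (in the table as Agpat9) and Lclat1, by 0.51 ± 0.15 (0.0457) and 0.23 ± 0.06 (0.0348). Of the glycerolipid list 4 of 13 were called higher and none lower, where 3.17% of all genes were called higher and 3.23% lower.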

How the data were processed

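Total RNA of 19 mouse livers was prepared with Trizol and RNeasy and sequenced with a NuGen Ovation mouse kit, per the labels' protocols. The authors deposited unnormalized read counts for each gene symbol and mouse. Reads were aligned and counted with tools that include STAR 2.7.2b and featureCounts 1.6.4 on GRCm38, per the submitters' processing notes. Annotation, strand setting and the rule for multi-mapping reads were not given in the sources used here. In 27 rows the symbol is a calendar date, and these hold at most 0.174% of a library's counts.

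Counts were tested in R 4.3.3 with edgeR 4.0.16: TMM scaling, the filterByExpr filter by genotype, 1 quasi-likelihood fit of all 19 libraries with genotype as its factor, and Benjamini-Hochberg adjusted p-values over the 16463 genes left, two-sided, called under 0.05. A second fit added mouse number divided by 10 as a linear term. SE is the absolute log2 fold change over the root of F. Log2 CPM uses a prior count of 2. The scripts were tested on simulated data. Positions and exon lengths come from GENCODE M21 (GRCm38), promoters from RefSeq (GRCm38.p6). Mice were grouped by the genotype label. Every pair of libraries within a genotype differed by more than sampling noise (chi-square at least 21.6 per degree of freedom), and nothing beyond the titles says that the samples are separate animals. Tf, a hepatocyte marker, was not used here because no row has this name.

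Full statistics are given for members called and for the 5 with the smallest p in each comparison, and for called genes and up to 3 others of each further list. The values of 1 gene of a further list are not reported here. Genes named beyond these were chosen after their values were seen. The members, lists and mouse number term were chosen with earlier results of these data known. Alternatives were DESeq2 1.42.0, limma-voom (limma 3.58.1) with quality weights, DESeq2's size factors, no filter, 1 CPM in 6 libraries, only the 2 genotypes compared, an adjusted p under 0.10, leaving out mice 1 to 3 or each library in turn, only mice 8 to 13, only mice 14 to 20, and a mouse number covariate.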

Additional observations from a re-analysis of the deposited data

Results flagged for a closer look

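In 26 of 96 groups (32 genes in 3 genotypes) 1 mouse stood apart from the rest of its genotype by Dixon's criterion. For normally distributed values, chance gives this in about 1 in 20 groups. The criterion was applied to CPM without a log, and whether these values are normally distributed was not tested. The 26 therefore cannot be read against that rate. Of the 26, 10 were Homo mouse 16 and 9 were Het mouse 4, and genes that vary together across mice are not independent flags. Homo mouse 16 was the highest Homo mouse at 335 CPM for Acly, 256 for Acss2, 83.6 for Slc25a1, 538 for Acaca, 443 for Fasn, 687 for Elovl2, 893 for Elovl5, 131 for Elovl6, 523 for Gpam and 17.3 for Pnpla3. The next Homo mouse was at 3.87 CPM for Pnpla3 and at 340 for Gpam.

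Het mouse 4 was the highest Het mouse at 639 CPM for Acly, 315 for Acss2, 333 for Me1, 744 for Acaca, 1290 for Fasn, 128 for Elovl6, 957 for Gpam, 1590 for Lpin1 and 27.2 for Pnpla3. WT mouse 1 was the highest WT mouse at 848 CPM for Fasn and 20.6 for Pnpla3.

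The remaining 5 mice stood apart for single genes. Pparg was at 44.8 CPM in Het mouse 14. Scd2 was at 5.26 CPM in Homo mouse 18, the lowest of its genotype. Dgat2 was at 153 CPM in Homo mouse 17 and at 184 in WT mouse 11, each the highest of its genotype. Nr1h3 was at 119 CPM in WT mouse 2, the lowest of its genotype.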

How the results depend on the processing

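No paired analysis was possible because each mouse has its own number and the labels tie no mouse of a genotype to one of another. The count of members called in Homo against WT was 0 and became 2 with DESeq2, and 0 to 1 when each library was left out, the 1 being Insig2 without WT replicate 5 (mouse 11). In Het against WT and Homo against Het it stayed at 0 under every alternative run. The count with mouse number was 4 and became 7 with DESeq2, 8 at an adjusted p under 0.10, 2 without mice 1 to 3 and 0 within mice 8 to 13 and within mice 14 to 20, where so few mice limit any test. It ranged from 2 to 8 when each library was left out, and was 2 without Het replicate 1, 5 or 6 (mice 4, 19 and 20) or WT replicate 1 (mouse 1) and 8 without Homo replicate 4 (mouse 16). The share of all genes called with mouse number under these alternatives is not given here, so the counts do not set the members apart from other genes. With DESeq2 the 4 further lists also rose, from 8 to 15 of 59 genes. The count of pairs that passed by Pearson's r was 8 and became 4 with genotype means removed, 2 without the 2 mice farthest from the median, and 3 with genotype means and mouse number removed, an alternative chosen after seeing the data. Pairs that passed by rho are not in these counts.

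Fasn turned its direction in Homo against Het, to 0.63 within mice 14 to 20 and to 0.13 without Het replicate 1, with a range of -0.89 to 0.13 over libraries left out. Within mice 8 to 13 the slopes with mouse number turned to 0.97 for Fasn, 0.0821 for Mid1ip1 and 0.50 for Acaca. With genotype means and mouse number removed, r turned to -0.142 for Srebf1 and Pnpla3 and to -0.061 for Srebf1 and Gpam. The cause was not tested. With mouse number as a covariate 21 of 32 members kept their direction in Homo against WT. Of 170 values of named members under alternatives other than leaving out 1 library, 153 kept their direction and their side of the threshold. For a value that was not called, this means only that it kept its sign and stayed uncalled. Some alternatives also differ little from the main fit. With DESeq2's size factors all 32 members kept their direction in each comparison.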
